A study of Homo sapiens with 15 samples.

Results

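The transcripts described here belong to 32 genes of the hypoxia-inducible factor (HIF) pathway: its subunits and oxygen sensors, and genes that HIF is known to induce. They were chosen by gene name, with earlier results of these data known. All 32 were found among the 15790 genes of an RNA-seq table of human cultures. Each of the 32 passed the filter for low values, a normalized count of at least 10 in at least 3 libraries, in every comparison. The study grew RPTEC/TERT1, human proximal tubule cells of the kidney made immortal, on membranes named LN/FN-silk or LN/PC, with or without fHDF/TERT166 cells, an immortalized line of foreskin dermal fibroblasts. LN/FN-silk is made with recombinant spider silk and is called silk from here on. The 5 groups of 3 libraries were fibroblast monocultures, co-cultures of both cell types on silk, epithelial monocultures on silk, co-cultures on LN/PC, and epithelial monocultures on LN/PC. Seeding densities were 140000 epithelial cells and 14000 fibroblasts per cm2, and RNA was taken 14 days later from 3 to 8 pooled membranes per sample. All epithelial cultures and co-cultures used the same medium with 5 mM glucose under 5% CO2; the labels give no oxygen level. Silk was scraped off and LN/PC was cut from its holder, and effects of the membrane cannot be told apart from those of the harvest. Fibroblasts of the fibroblast group were scraped from the well bottom; they are basolateral cells in the protocol and monocultures in the titles, and their medium during the experiment is not stated. Each cell type is represented by 1 line. Nothing states that the 3 replicates of a group were grown separately, so p-values speak only of the spread among these libraries, some of which may be technical.

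HIF is a dimer of an oxygen-labile alpha subunit, encoded by HIF1A or EPAS1, and a stable partner, encoded by ARNT. When oxygen is plentiful, prolyl hydroxylases such as EGLN1 and EGLN3 mark the alpha subunit, and the VHL protein directs it to destruction. When oxygen is scarce the alpha subunit persists, and the dimer binds short DNA elements with the core ACGTG or GCGTG near genes for angiogenesis, glycolysis, collagen maturation and mitochondrial turnover. This control acts mainly on the protein, so transcript levels of HIF1A are not a measure of HIF activity. In the kidney, proximal tubules carry mainly HIF-1 alpha, while interstitial fibroblasts carry HIF-2 alpha, the EPAS1 product, which drives erythropoietin.

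RefSeq promoter windows (250 bases before to 50 bases after the start, build GRCh38.p14) were found for 24 of the 32 genes, and the pentamers ACGTG and GCGTG were searched on both strands. The pentamers can overlap across strands, since CACGTG reads as ACGTG on either strand. At least 1 match lay in 20 of the 24 windows (83.3%), against 48.4% of all 27305 windows. ACGTG alone lay in 14 of 24 (58.3%), against 21.6% of all windows, and 2 or more matches of either pentamer lay in 13 of 24 (54.2%), against 23.3%. EGLN3, P4HA2, MXI1 and ARNT had no match in this window. Both pentamers hold the letters CG, and the windows compared were not matched for base content or expression. A match is a description of letters and not a binding site. Of the genes called higher in silk co-cultures than in silk monocultures, 6 of 9 with a window held a match, as did 14 of 15 of the others. For LN/PC the numbers were 11 of 12 called genes and 9 of 12 others. The windows of 6 genes that the results turn on are shown in lower case with matches to either pentamer, on either strand, in capitals. They are the genes called higher by at least 1 log2 unit in the co-cultures of both membranes for which the RefSeq table holds a window, and EPAS1, the alpha subunit called in the test of a membrane difference; this choice was made after their values were seen. The STC2 window is chr5:173328365-173328664 on the minus strand, with 3 matches. ANGPTL4 has chr19:8363905-8364204 on the plus strand, with 1 match. ERO1A has chr14:52695509-52695808 on the minus strand, with 3 matches. ADM has chr11:10304823-10305122 on the plus strand, with 1 match. LOX has chr5:122078210-122078509 on the minus strand, with 4 matches, all of them ACGTG. EPAS1 has chr2:46297157-46297456 on the plus strand, with 1 match.
STC2: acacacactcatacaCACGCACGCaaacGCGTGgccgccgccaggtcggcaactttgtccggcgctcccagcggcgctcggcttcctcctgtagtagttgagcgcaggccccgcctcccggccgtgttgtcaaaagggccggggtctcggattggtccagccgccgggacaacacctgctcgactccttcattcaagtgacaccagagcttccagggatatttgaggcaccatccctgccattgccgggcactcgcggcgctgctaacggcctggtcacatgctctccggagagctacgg
ANGPTL4: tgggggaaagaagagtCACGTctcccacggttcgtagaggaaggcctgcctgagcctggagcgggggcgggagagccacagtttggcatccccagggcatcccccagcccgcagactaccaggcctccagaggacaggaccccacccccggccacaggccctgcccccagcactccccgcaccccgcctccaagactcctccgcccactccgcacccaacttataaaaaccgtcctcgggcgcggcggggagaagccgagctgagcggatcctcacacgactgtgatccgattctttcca
ERO1A: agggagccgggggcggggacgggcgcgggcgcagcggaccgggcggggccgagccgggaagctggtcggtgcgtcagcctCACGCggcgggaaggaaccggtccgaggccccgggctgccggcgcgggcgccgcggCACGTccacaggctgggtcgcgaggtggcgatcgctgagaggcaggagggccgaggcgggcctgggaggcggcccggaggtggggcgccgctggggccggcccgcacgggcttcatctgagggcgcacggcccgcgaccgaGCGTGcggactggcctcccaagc
ADM: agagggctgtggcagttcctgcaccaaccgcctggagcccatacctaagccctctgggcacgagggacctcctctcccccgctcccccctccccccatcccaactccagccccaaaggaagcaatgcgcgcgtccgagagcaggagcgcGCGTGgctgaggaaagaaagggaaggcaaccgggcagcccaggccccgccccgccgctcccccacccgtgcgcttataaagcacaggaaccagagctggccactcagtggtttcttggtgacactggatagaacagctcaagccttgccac
LOX: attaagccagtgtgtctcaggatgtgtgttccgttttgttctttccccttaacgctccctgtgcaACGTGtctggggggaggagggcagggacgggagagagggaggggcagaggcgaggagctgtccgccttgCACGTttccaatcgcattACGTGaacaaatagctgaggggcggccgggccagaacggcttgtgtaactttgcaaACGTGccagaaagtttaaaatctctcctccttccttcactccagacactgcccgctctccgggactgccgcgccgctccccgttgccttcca
EPAS1: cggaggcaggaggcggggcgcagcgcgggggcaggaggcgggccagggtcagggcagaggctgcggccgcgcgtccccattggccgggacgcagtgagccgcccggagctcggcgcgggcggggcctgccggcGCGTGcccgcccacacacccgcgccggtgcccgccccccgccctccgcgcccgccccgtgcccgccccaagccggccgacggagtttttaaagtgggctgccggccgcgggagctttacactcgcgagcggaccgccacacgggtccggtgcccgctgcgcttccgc

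Library totals ran from 9078771 to 12662726 normalized counts. Normalized counts are not divided by transcript length, so levels are compared here between samples of 1 gene and not between genes. CD24, CDH16 and PAX8, epithelial genes of the renal tubule, were at 1832 or more in all 12 epithelial and co-culture libraries and at 1.48 or less in fibroblasts. Of 19 renal epithelial markers, 16 were called lower and 3 higher in fibroblasts than in epithelial monocultures. The 3 that went against the cell labels were all genes of the proximal tubule: AQP1, a water channel (6193 to 6990 in fibroblasts, against 5.29 to 14.7 in epithelial monocultures), ANPEP, an aminopeptidase (9754 to 11757 against 1046 to 2278), and CUBN, an endocytic receptor (111 to 193 against 25.8 to 108). The co-culture labels differed in what the RNA held. Over 112 fibroblast marker genes, fibroblast RNA made up 0.0239%, 0% and 0.113% of silk co-cultures 1, 2 and 3, against 13.9%, 9.81% and 15.2% of LN/PC co-cultures 1, 2 and 3. In bulk RNA, fewer fibroblasts and less RNA per fibroblast cannot be told apart. Of 18 defining fibroblast markers, POSTN and TWIST1 were at 0 in all 3 silk co-cultures and all 6 epithelial monocultures. Traces of others were there. COL1A2 had 80.3, 4.75 and 194 in silk co-cultures, against 0.0, 0.0 and 25.1 in silk monocultures. COL6A3 had 29.1, 2.62 and 230.5 in silk co-cultures, against 0.37, 9.97 and 0.0 in silk monocultures, and silk co-culture 3 was the highest for both. In silk co-cultures against silk monocultures 3 of the 18 were called higher and 0 lower, and in LN/PC co-cultures against LN/PC monocultures 18 of 18 were higher. The summed level of 18 fibroblast markers was 707420 to 777870 in fibroblasts, 61373 to 64929 in silk co-cultures, 36457 to 41841 in silk monocultures, 167940 to 255200 in LN/PC co-cultures and 26655 to 30932 in LN/PC monocultures. Most of it was VIM in the epithelial monocultures and in silk co-cultures, where VIM alone had 58927 to 62163. The silk co-culture libraries hold almost no fibroblast transcripts, while the LN/PC co-cultures hold RNA of both cell types.

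Many of the HIF genes were higher in co-cultures than in monocultures, on both membranes. On silk, 12 of the 32 were called higher than in silk monocultures and 0 lower, beside 2.91% of all tested genes called higher and 0.866% lower. On LN/PC, 15 were called higher than in LN/PC monocultures and 0 lower, beside 7.8% of all genes higher and 4.72% lower. Because the 32 were chosen with earlier results of these data known, these counts describe the list and do not test it. A call is a limma-trend adjusted p under 0.05 (Benjamini-Hochberg over all tested genes), and differences are in log2(normalized count + 1), co-culture minus monoculture, silk minus LN/PC or fibroblast minus epithelial, ± SE, with 3 libraries a group. Where a call is said to end without a library, each library was left out alone, in turn, from the fit. The median difference of the 32 was 0.65 on silk, against 0.00 for all genes, and 0.68 on LN/PC, against -0.04 for all genes. The difference was positive for 30 of 32 genes on silk and 26 of 32 on LN/PC. Called on both membranes were 9 genes: NDRG1, STC2, ANGPTL4, ERO1A, ADM, BNIP3L, P4HA2, LOX and HILPDA. The share of all genes called higher on both membranes was not counted, so this number has no background beside it. EGLN3, MXI1 and EPAS1 were called on silk alone and BNIP3, P4HA1, PLOD1, PLOD2, FAM162A and PPFIA4 on LN/PC alone, which is no test of a difference between membranes. A fit of the silk libraries alone also called STC1, VEGFA, BNIP3, P4HA1 and WSB1 higher on silk, beside 5.70% of all genes. The silk count was 7 without silk co-culture 2, beside 1.85% of all genes called higher in that fit. The LN/PC count was 9 without LN/PC co-culture 1, beside 3.53% of all genes, and 9 without LN/PC monoculture 1, beside 5.74%. Without LN/PC monoculture 2, 4.12% of all genes were called higher on silk and 8.02% on LN/PC.

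**Figure D1:**
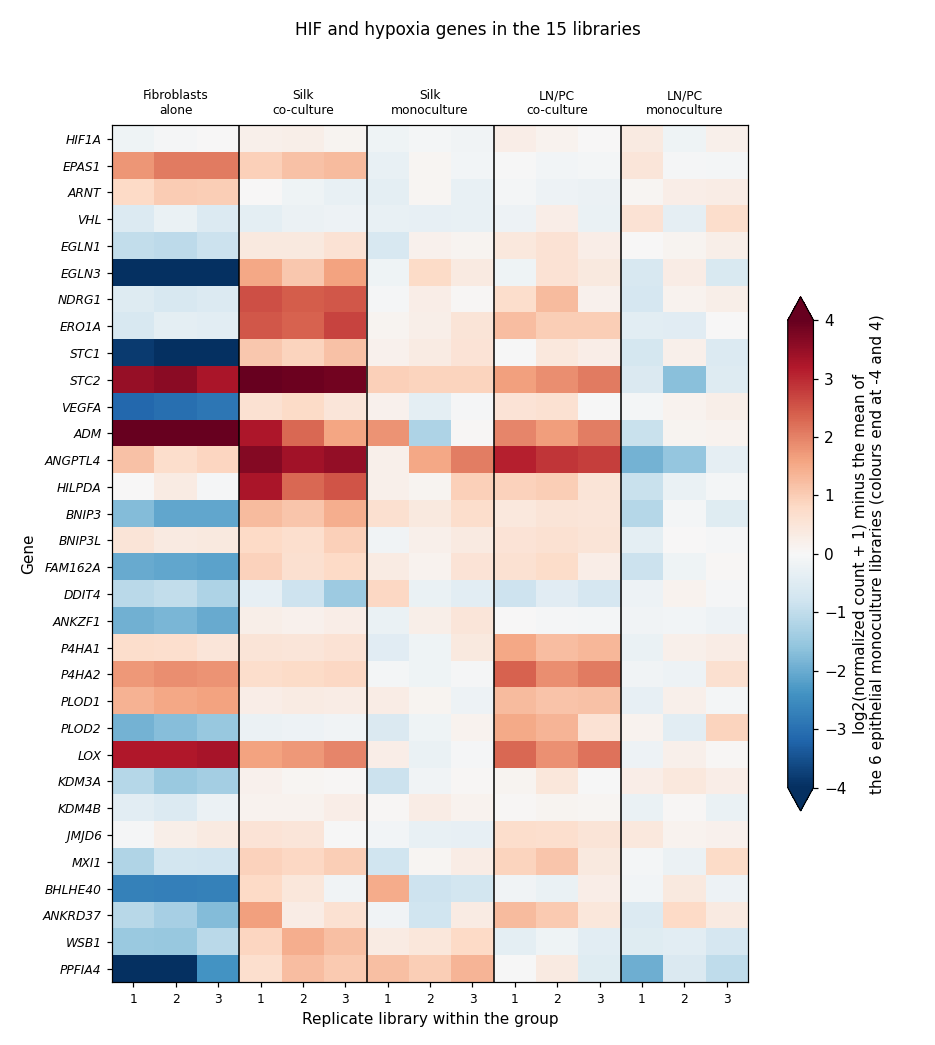
Each row is 1 of the 32 genes and each column 1 of the 15 libraries; colour gives log2(normalized count + 1) minus the mean of the 6 epithelial monoculture libraries, with colours ending at -4 and 4. NDRG1, ERO1A, STC2, ANGPTL4 and HILPDA are red in all 3 silk co-cultures, while the fibroblast columns are blue for EGLN3 and STC1 and red for ADM, STC2 and LOX.

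**Figure D2:**
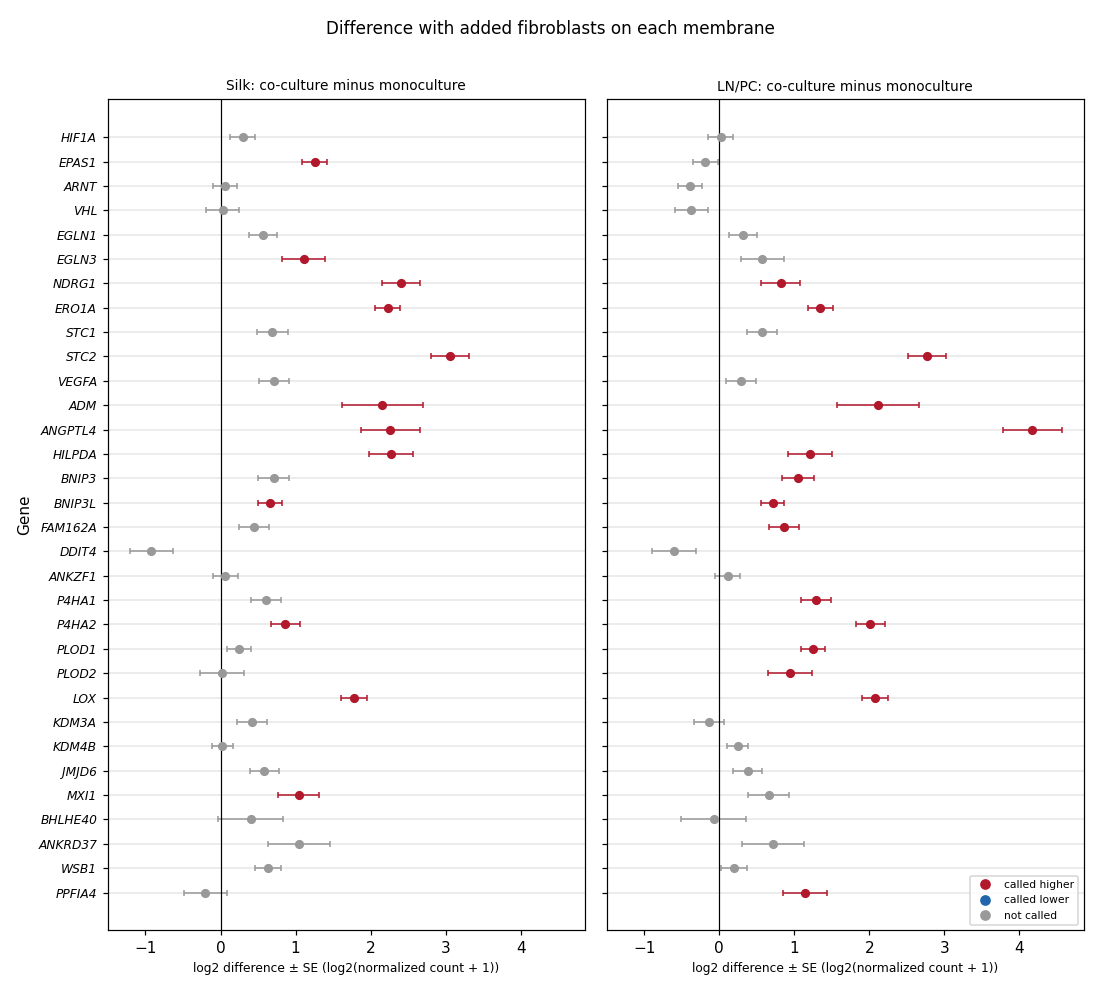
Points are log2 differences, co-culture minus monoculture of the same membrane, for the 32 genes on silk (left) and LN/PC (right); bars are SE from the fit of 12 libraries. Red points are the 12 genes called higher on silk and the 15 called higher on LN/PC, and no gene is called lower on either membrane.

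Of the subunits and VHL, EPAS1 was the 1 gene called in an epithelial comparison, higher in silk co-cultures. EPAS1 had 883, 1013 and 1097 normalized counts in silk co-cultures, against 367, 472 and 414 in silk monocultures. It had 448, 422 and 425 in LN/PC co-cultures, against 626, 442 and 427 in LN/PC monocultures. All 3 silk co-cultures lay above every other epithelial library, and the LN/PC groups overlapped. EPAS1 rose by 1.25 ± 0.17, adjusted p = 0.00033 on silk, while the LN/PC difference was -0.18 ± 0.17, adjusted p = 0.52.

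HIF1A, the other alpha subunit, had 8428, 8589.9 and 7893 normalized counts in silk co-cultures, against 6545, 7009.5 and 6748 in silk monocultures. It had 8843, 8102 and 7452 in LN/PC co-cultures, against 9349, 6482 and 8501 in LN/PC monocultures. The silk groups did not overlap and the LN/PC groups did, but no HIF1A comparison was called. The unadjusted 95% interval of the HIF1A difference was -0.06 to 0.65 on silk and -0.34 to 0.37 on LN/PC. ARNT, the stable partner, had 495, 439 and 397 in silk co-cultures, against 374, 514 and 395 in silk monocultures. The ARNT level was 461, 426 and 412 in LN/PC co-cultures, against 515, 592 and 597 in LN/PC monocultures. ARNT was lower in every LN/PC co-culture than in every LN/PC monoculture without being called (-0.39 ± 0.16, adjusted p = 0.131). VHL, the substrate receptor of the ligase that removes alpha subunits, had 804, 911 and 916 in silk co-cultures, against 865, 839.6 and 871 in silk monocultures. It had 928, 1279 and 881 in LN/PC co-cultures, against 1597, 830.3 and 1719.5 in LN/PC monocultures. LN/PC monoculture 2 was low beside the other two of its group. Without that library VHL was called lower in silk monocultures than in LN/PC monocultures (adjusted p = 0.00112) and lower in LN/PC co-cultures than in LN/PC monocultures (adjusted p = 0.00758). That fit called 11.5% and 5.93% of all genes lower in these 2 comparisons, against 5.79% and 4.72% with all libraries.

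Of the 2 prolyl hydroxylases, themselves HIF targets, EGLN3 was called on silk and EGLN1 on neither membrane. EGLN3 had 619, 449 and 649 normalized counts in silk co-cultures, against 185, 357 and 269 in silk monocultures. It had 187, 314 and 277 in LN/PC co-cultures, against 136, 262 and 138 in LN/PC monocultures. Only the silk groups were apart, where EGLN3 rose by 1.11 ± 0.29, adjusted p = 0.0397. That call ended without any silk co-culture or silk monoculture 1 or 3 (adjusted p between 0.0523 and 0.197), and under upper quartile scaling (adjusted p = 0.0591), total scaling (adjusted p = 0.0875) and the fit of 15 libraries (adjusted p = 0.0505). Without LN/PC monoculture 2, EGLN3 was also called in LN/PC co-cultures (adjusted p = 0.0384), beside 8.02% of all genes called higher. EGLN1, the main oxygen sensor in most cells, was called in no epithelial comparison. It averaged 1169 ± 91.5 in silk co-cultures, against 812 ± 232 in silk monocultures (SD, n = 3 each). On LN/PC it averaged 1148 ± 124 in co-cultures, against 923 ± 67.8 in monocultures, and the groups were apart on each membrane.

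NDRG1, a stress-responsive cytoplasmic protein long used as a hypoxia marker, gave 1 of the clearest silk differences. NDRG1 had 21756, 19393 and 20352 normalized counts in silk co-cultures, against 3520.5, 4385 and 3755 in silk monocultures. It had 5868, 8689.5 and 4112 in LN/PC co-cultures, against 2277, 4006 and 4214 in LN/PC monocultures. The silk groups were far apart, a 5.29-fold difference (2.40 ± 0.25, adjusted p = 2.92e-05), while the LN/PC groups overlapped. The LN/PC difference of 0.82 ± 0.25 was called narrowly (adjusted p = 0.0452). It was not called without any silk co-culture, silk monoculture 2 or 3, LN/PC co-culture 1 or 2 or LN/PC monoculture 1 (adjusted p between 0.0541 and 0.223), under total scaling (adjusted p = 0.0702) or in a fit of the 6 LN/PC libraries alone (adjusted p = 0.123). ERO1A, the oxidase that drives disulfide bond formation in the endoplasmic reticulum, had 4938, 4540.1 and 5815 in silk co-cultures, against 955, 1035 and 1278 in silk monocultures. It had 2097, 1746 and 1741 in LN/PC co-cultures, against 666, 653 and 889.8 in LN/PC monocultures. On each membrane all co-cultures lay above all monocultures. ERO1A rose by 2.23 ± 0.17, adjusted p = 1.04e-06 on silk and by 1.35 ± 0.17, adjusted p = 2e-05 on LN/PC, and kept its call under every alternative on both.

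Of the secreted factors, STC2, ANGPTL4 and ADM were called on both membranes. STC2, a glycoprotein hormone of the stanniocalcin family, had 1716, 1454 and 1411 normalized counts in silk co-cultures, against 188, 180.0 and 178 in silk monocultures. It had 298, 349.9 and 412 in LN/PC co-cultures, against 64.3, 29.3 and 67.3 in LN/PC monocultures. The groups were apart on both membranes: STC2 rose 8.32-fold on silk (3.06 ± 0.25, adjusted p = 1.89e-06) and 6.84-fold on LN/PC (2.77 ± 0.25, adjusted p = 6.99e-07). Its relative STC1 had 1697, 1490.4 and 1828 in silk co-cultures, against 919.7, 1021 and 1169 in silk monocultures. STC1 had 799.9, 1086 and 965 in LN/PC co-cultures, against 497, 922 and 554 in LN/PC monocultures. All silk co-cultures were above all silk monocultures, yet STC1 was called on neither membrane (0.69 ± 0.20, adjusted p = 0.0706 on silk, 0.57 ± 0.20, adjusted p = 0.0751 on LN/PC). Without LN/PC monoculture 2 it was called on both (adjusted p = 0.00976 on silk, adjusted p = 0.00214 on LN/PC), beside 4.12% and 8.02% of all genes called higher in that fit. A fit of the silk libraries alone also called STC1 on silk (adjusted p = 0.00705). Epithelium-restricted scaling and array weights called it on both membranes (adjusted p between 0.00107 and 0.0183).

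ANGPTL4, an inhibitor of lipoprotein lipase, had 1088, 876 and 979.5 normalized counts in silk co-cultures, against 96.9, 248 and 348 in silk monocultures. It had 733, 614 and 583 in LN/PC co-cultures, against 21.9, 28.3 and 66.1 in LN/PC monocultures. Co-cultures lay above monocultures in every library of both membranes. ANGPTL4 rose 18.0-fold on LN/PC (4.17 ± 0.39, adjusted p = 9.91e-07), the largest difference of the 32 genes in either co-culture comparison, and 4.79-fold on silk (2.26 ± 0.39, adjusted p = 0.00307). ADM, which encodes the vasodilator adrenomedullin, had 1809, 938 and 576 in silk co-cultures, against 670.1, 81.8 and 198 in silk monocultures. It had 753, 620.0 and 802 in LN/PC co-cultures, against 103, 209 and 213 in LN/PC monocultures. Silk monoculture 1 stood above its group, so the silk groups overlapped, while the LN/PC groups did not. ADM rose by 2.16 ± 0.54, adjusted p = 0.0338 on silk and by 2.11 ± 0.54, adjusted p = 0.0164 on LN/PC. The silk difference was 2.95 without silk monoculture 1 and 1.44 without silk monoculture 2, and the call ended without silk co-culture 1 or 2 or silk monoculture 2 or 3 (adjusted p between 0.0939 and 0.164). The LN/PC call ended without LN/PC co-culture 1 or LN/PC monoculture 1 (adjusted p between 0.0567 and 0.0928).

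VEGFA, the main angiogenic growth factor among HIF targets, was not called in any epithelial comparison. It averaged 10452 ± 1046 (SD, n = 3) normalized counts in silk co-cultures, against 6429.8 ± 1223 in silk monocultures. On LN/PC it averaged 8991 ± 1975 in co-cultures, against 7229 ± 793 in monocultures. Its 3 silk co-cultures lay above the 3 silk monocultures (0.71 ± 0.20, adjusted p = 0.0586), with an unadjusted 95% interval of 0.29 to 1.14. It was called on silk without silk monoculture 1, LN/PC co-culture 3 or LN/PC monoculture 2 (adjusted p between 0.0315 and 0.0423). VEGFA was also called on silk in a fit of the silk libraries alone (adjusted p = 0.0109) and in the fit of 15 libraries (adjusted p = 0.0283). So it was with array weights (adjusted p = 0.000647), the deposited log2 values (adjusted p = 0.048) and a stricter filter on low values (adjusted p = 0.0484). Epithelium-restricted scaling gave a call on silk (adjusted p = 0.0102) and on LN/PC (adjusted p = 0.014). HILPDA, a small protein that slows lipolysis at lipid droplets, had 893, 453 and 531 in silk co-cultures, against 107, 98.3 and 177 in silk monocultures. It had 174, 181 and 130.4 in LN/PC co-cultures, against 49.4, 75.5 and 86.0 in LN/PC monocultures. Neither membrane's groups overlapped, and silk co-culture 1 was the highest library. HILPDA rose by 2.28 ± 0.29, adjusted p = 0.000247 on silk and by 1.21 ± 0.29, adjusted p = 0.0114 on LN/PC, where the call ended without LN/PC co-culture 1 or LN/PC monoculture 1 (adjusted p between 0.0522 and 0.068).

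**Figure D3:**
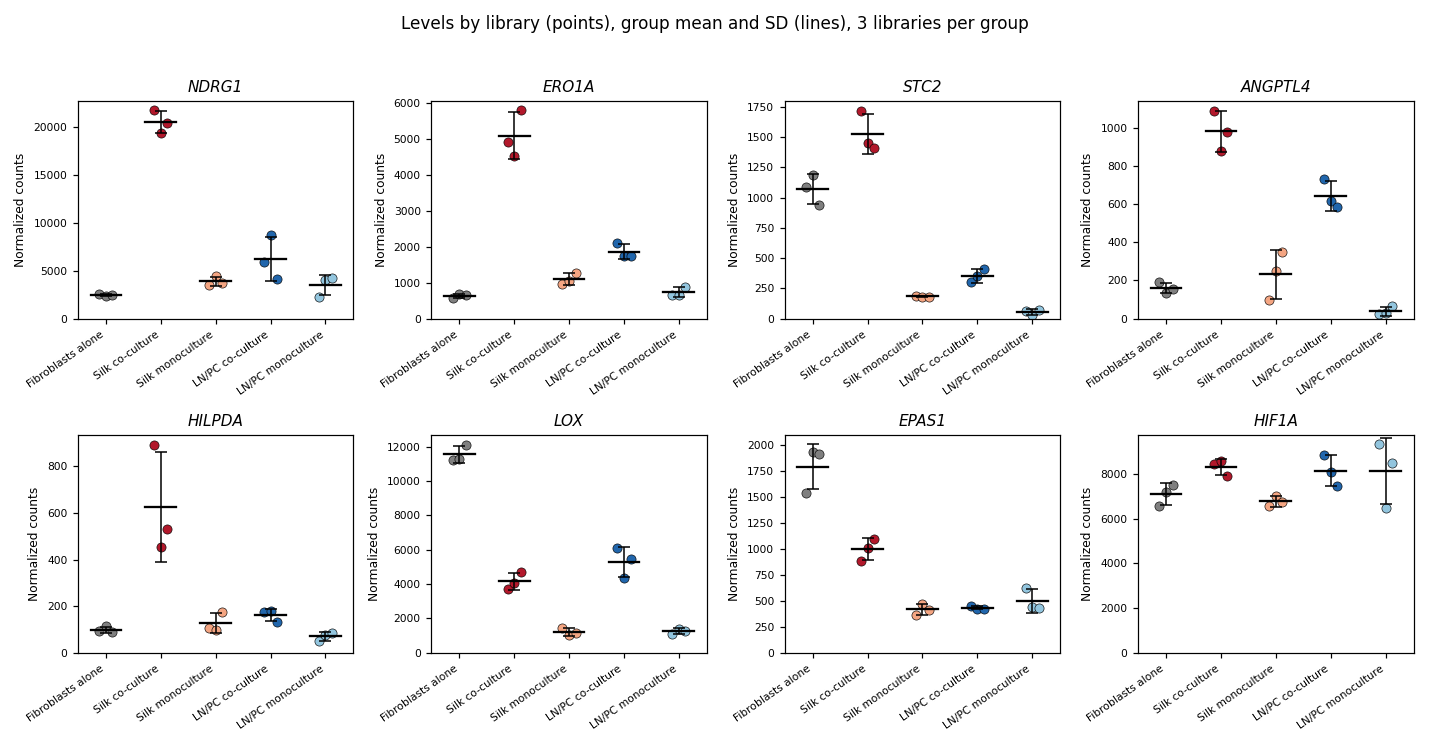
Normalized counts of 8 genes on linear axes from 0; points are the 3 libraries of a group, the long bar is their mean and the error bar their SD. NDRG1 reaches 19393 to 21756 in silk co-cultures and stays at or below 8690 elsewhere, EPAS1 is high in fibroblasts and silk co-cultures, and HIF1A lies between 6482 and 9349 in all 15 libraries.

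Of the 5 enzymes that modify collagen, P4HA2 and LOX were called on both membranes, and P4HA1, PLOD1 and PLOD2 on LN/PC alone. P4HA1, a catalytic subunit of collagen prolyl 4-hydroxylase, had 3585, 3499 and 3763 normalized counts in silk co-cultures, against 1827, 2207 and 3295 in silk monocultures. It had 7262, 5919 and 6273 in LN/PC co-cultures, against 2075, 2876 and 3092 in LN/PC monocultures. All LN/PC co-cultures exceeded all other libraries of the table. P4HA1 rose on LN/PC (1.29 ± 0.20, adjusted p = 0.000264) and was not called on silk (0.61 ± 0.20, adjusted p = 0.111), where it was called without silk monoculture 3 (adjusted p = 0.0259). A fit of the silk libraries alone (adjusted p = 0.0488), epithelium-restricted scaling (adjusted p = 0.0494) and array weights (adjusted p = 0.00182) also called P4HA1 on silk. P4HA2, the second catalytic subunit, had 1067, 1129 and 1165 in silk co-cultures, against 620.4, 586 and 638 in silk monocultures. It had 3426, 2414 and 2817 in LN/PC co-cultures, against 599, 578 and 1025 in LN/PC monocultures. The groups were apart on both membranes, by 0.86 ± 0.19, adjusted p = 0.0167 on silk and by 2.01 ± 0.19, adjusted p = 1.22e-06 on LN/PC. The silk call ended without any silk co-culture or silk monoculture 2 (adjusted p between 0.0513 and 0.0926).

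PLOD1, a lysyl hydroxylase, had 1331, 1394 and 1358 normalized counts in silk co-cultures, against 1341, 1195 and 947 in silk monocultures. It had 2651, 2399 and 2454 in LN/PC co-cultures, against 876, 1269 and 1044 in LN/PC monocultures. The silk groups overlapped (0.24 ± 0.16, adjusted p = 0.484), while PLOD1 rose on LN/PC (1.25 ± 0.16, adjusted p = 3.11e-05). PLOD2, the lysyl hydroxylase of collagen telopeptides, had 3975, 4088 and 4195 in silk co-cultures, against 3120.4, 4112 and 5127 in silk monocultures. It had 13234, 11995 and 6894 in LN/PC co-cultures, against 5126, 3469 and 8717 in LN/PC monocultures. On silk the groups overlapped (0.02 ± 0.29, adjusted p = 0.99, 95% interval -0.60 to 0.64), and on LN/PC the groups overlapped through LN/PC co-culture 3 and LN/PC monoculture 3. The LN/PC rise of PLOD2, 0.94 ± 0.29, adjusted p = 0.0445, ended without any silk co-culture, silk monoculture 2, LN/PC co-culture 1 or 2 or LN/PC monoculture 1 or 2 (adjusted p between 0.061 and 0.189) and in a fit of the 6 LN/PC libraries alone (adjusted p = 0.118).

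LOX, the secreted amine oxidase that crosslinks collagen and elastin, had 3736, 4073 and 4705 normalized counts in silk co-cultures, against 1471, 1028 and 1179.7 in silk monocultures. It had 6077, 4355 and 5484 in LN/PC co-cultures, against 1072, 1409 and 1267 in LN/PC monocultures. Groups were apart on both membranes, and LOX rose by 1.77 ± 0.17, adjusted p = 1.27e-05 on silk and by 2.08 ± 0.17, adjusted p = 2.65e-07 on LN/PC. Both calls held under every alternative.

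Of the mitochondrial genes, BNIP3L was called on both membranes, and BNIP3 and FAM162A on LN/PC. BNIP3, a receptor for mitophagy, had 5574, 4979 and 6316 normalized counts in silk co-cultures, against 3556, 3041 and 3727 in silk monocultures. It had 3062, 3271 and 3227 in LN/PC co-cultures, against 1034, 2172 and 1626 in LN/PC monocultures. Co-cultures were above monocultures in every library of each membrane. BNIP3 rose on LN/PC (1.05 ± 0.21, adjusted p = 0.0025) and was not called on silk (0.71 ± 0.21, adjusted p = 0.0721), where it was called without LN/PC monoculture 1 or 2 (adjusted p between 0.0151 and 0.018). A fit of the silk libraries alone (adjusted p = 0.00546), epithelium-restricted scaling (adjusted p = 0.0159) and array weights (adjusted p = 0.000721) also called BNIP3 on silk. Its relative BNIP3L had 2640.1, 2423 and 2924 in silk co-cultures, against 1383, 1756 and 1948 in silk monocultures. It had 2192, 2332 and 2187 in LN/PC co-cultures, against 1143, 1525 and 1465 in LN/PC monocultures. The groups did not overlap, and BNIP3L rose by 0.66 ± 0.16, adjusted p = 0.025 on silk and by 0.71 ± 0.16, adjusted p = 0.00627 on LN/PC. On silk the call ended without any silk co-culture or silk monoculture 1 or 2 (adjusted p between 0.051 and 0.159) and under total scaling (adjusted p = 0.0833).

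FAM162A, a mitochondrial protein linked to hypoxic cell death, had 2156, 1764 and 1965 normalized counts in silk co-cultures, against 1418, 1248 and 1665 in silk monocultures. It had 1723, 1901 and 1367 in LN/PC co-cultures, against 625, 1016 and 1173 in LN/PC monocultures. The groups were apart on each membrane. FAM162A rose on LN/PC (0.86 ± 0.21, adjusted p = 0.0103) and was not called on silk (0.45 ± 0.21, adjusted p = 0.28), where array weights gave a call (adjusted p = 0.0127). The LN/PC call ended without LN/PC co-culture 1 or 2 or LN/PC monoculture 1 (adjusted p between 0.0515 and 0.0581). DDIT4, an inhibitor of mTORC1, was 1 of 2 genes with a negative difference on silk (-0.92 ± 0.29, adjusted p = 0.0975) and was negative on LN/PC too (-0.60 ± 0.29, adjusted p = 0.202), neither called. DDIT4 averaged 2194 ± 837 (SD, n = 3) in silk co-cultures, against 4280.5 ± 2220.5 in silk monocultures. On LN/PC it averaged 2449 ± 319.6 in co-cultures, against 3713 ± 433 in monocultures. Silk monoculture 1, at 6839, was the highest DDIT4 library. ANKZF1, a factor of ribosome quality control, was called in no epithelial comparison and averaged between 687 and 890.2 over the 4 epithelial groups.

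Among regulators, MXI1, an antagonist of MYC, had 1198, 1116 and 1244 normalized counts in silk co-cultures, against 365, 673 and 775 in silk monocultures. It had 1177, 1369 and 838 in LN/PC co-cultures, against 595, 538 and 1069 in LN/PC monocultures. The silk groups were apart and the LN/PC groups overlapped. MXI1 rose on silk (1.04 ± 0.28, adjusted p = 0.0453), a call that ended without any silk co-culture, silk monoculture 1 or 2 or LN/PC monoculture 1 (adjusted p between 0.0539 and 0.178) and with no filter on low values (adjusted p = 0.052). The LN/PC difference was 0.66 ± 0.28, adjusted p = 0.137, called without LN/PC monoculture 3 (adjusted p = 0.0226). PPFIA4, a liprin scaffold protein, had 539.7, 795 and 695 in silk co-cultures, against 784, 662 and 875 in silk monocultures. It had 335, 435 and 240.5 in LN/PC co-cultures, against 85.5, 225 and 167 in LN/PC monocultures. PPFIA4 rose on LN/PC (1.14 ± 0.29, adjusted p = 0.0154), where the groups were apart, and its silk groups overlapped (-0.20 ± 0.29, adjusted p = 0.795). Its LN/PC call ended without LN/PC co-culture 1 or 2 or LN/PC monoculture 1 (adjusted p between 0.0567 and 0.0815), in a fit of the 6 LN/PC libraries alone (adjusted p = 0.0597) and in the fit of 15 libraries (adjusted p = 0.106).

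WSB1, an adaptor of a ubiquitin ligase, had 5687, 8526 and 7175 normalized counts in silk co-cultures, against 3949.8, 4271 and 5502 in silk monocultures. It had 2419, 2772 and 2325 in LN/PC co-cultures, against 2268, 2340.1 and 1971 in LN/PC monocultures. Silk libraries were all above LN/PC libraries, and neither co-culture difference was called (0.64 ± 0.17, adjusted p = 0.0528 on silk, 0.19 ± 0.17, adjusted p = 0.519 on LN/PC). On silk WSB1 was called without silk co-culture 1, silk monoculture 3 or LN/PC monoculture 2 or 3 (adjusted p between 0.0338 and 0.0464). A fit of the silk libraries alone (adjusted p = 0.0316), the fit of 15 libraries (adjusted p = 0.0403) and array weights (adjusted p = 0.00135) gave that call too. So did a stricter filter (adjusted p = 0.0447), a pseudocount of 5 (adjusted p = 0.0492), the deposited log2 values (adjusted p = 0.0466) and epithelium-restricted scaling (adjusted p = 0.0172). KDM3A, a histone H3 lysine demethylase, had 979.5, 928 and 902 in silk co-cultures, against 483, 784 and 903 in silk monocultures. It had 942, 1186 and 854 in LN/PC co-cultures, against 1050.0, 1157 and 1046 in LN/PC monocultures. Silk monoculture 1 was the lowest of the epithelial libraries, and the co-culture groups overlapped the monocultures on both membranes. The 4 other regulators, the demethylase KDM4B, the oxygenase JMJD6, the circadian repressor BHLHE40 and the ankyrin repeat gene ANKRD37, were called in no epithelial comparison. Their differences ran from 0.03 (KDM4B) to 1.05 (ANKRD37) on silk and from -0.07 (BHLHE40) to 0.71 (ANKRD37) on LN/PC. BHLHE40 turned on 1 library: silk monoculture 1 held 4722 normalized counts, against 951 and 1015 in the other silk monocultures. Without it, BHLHE40 was called higher in silk co-cultures (1.16, adjusted p = 0.0162) and in the comparison of co-culture effects between membranes (1.23, adjusted p = 0.0312).

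The membranes were compared without and with fibroblasts. In monocultures, 8 of the 32 genes were called higher on silk than on LN/PC and 1 lower, beside 5.88% of all genes higher and 5.79% lower. The median difference of the 32 was 0.11, against 0.03 for all genes, and it was -0.03 without LN/PC monoculture 1. PPFIA4 (a level difference of 2.37 ± 0.29, adjusted p = 0.000114), ANGPTL4 (2.52 ± 0.39, adjusted p = 0.000958), STC2 (1.83 ± 0.25, adjusted p = 0.000307), BNIP3 (1.15 ± 0.21, adjusted p = 0.00272) and WSB1 (1.05 ± 0.17, adjusted p = 0.00155) were higher on silk with no overlap between groups and under every alternative. STC1 (0.70 ± 0.20, adjusted p = 0.034), FAM162A (0.66 ± 0.21, adjusted p = 0.0473) and ERO1A (0.57 ± 0.17, adjusted p = 0.0362) were called more narrowly, and the STC1 groups overlapped. The STC1 call ended without any silk monoculture or LN/PC monoculture 1 or 3 (adjusted p between 0.0505 and 0.139). The FAM162A call ended without any silk co-culture, any silk monoculture, LN/PC co-culture 1 or LN/PC monoculture 1 (adjusted p between 0.0534 and 0.195) and with no filter on low values (adjusted p = 0.0515). The ERO1A call ended without silk co-culture 1, silk monoculture 2 or 3 or LN/PC monoculture 1 or 2 (adjusted p between 0.0524 and 0.117). All of these 3 calls ended in a fit of the 6 monocultures alone, with adjusted p of 0.0917 for STC1, 0.111 for FAM162A and 0.109 for ERO1A. KDM3A was the gene called lower (-0.63 ± 0.20, adjusted p = 0.0464). Its call ended without any silk co-culture, silk monoculture 1 or 2, LN/PC co-culture 1 or any LN/PC monoculture (adjusted p between 0.0531 and 0.206) and with no filter on low values (adjusted p = 0.05), in a fit of the 6 monocultures alone (adjusted p = 0.116) and under upper quartile (adjusted p = 0.0693), total (adjusted p = 0.0935) and epithelium-restricted scaling (adjusted p = 0.124). The count of genes called higher was 5 without silk monoculture 2, without silk monoculture 3 and without LN/PC monoculture 1. Of all genes, 3.39%, 3.745% and 4.255% were called higher in those fits, in that order. Without LN/PC monoculture 2, EGLN3 and KDM4B were called higher on silk as well (adjusted p = 0.022 and adjusted p = 0.0384), and ANKZF1 was so without silk monoculture 1 (adjusted p = 0.0472). Calls rose over all genes without LN/PC monoculture 2, to 10.8% higher and 11.5% lower.

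In co-cultures, 10 genes were called higher on silk than on LN/PC and 4 lower, beside 18.5% of all genes higher and 17.6% lower. The median difference of the 32 was 0.24, against 0.03 for all genes. The 10 were STC2 (2.12 ± 0.25), HILPDA (1.90 ± 0.29), NDRG1 (1.79 ± 0.25), WSB1 (1.49 ± 0.17), ERO1A (1.45 ± 0.17), EPAS1 (1.20 ± 0.17), EGLN3 (1.15 ± 0.29), PPFIA4 (1.03 ± 0.29), STC1 (0.82 ± 0.20) and BNIP3 (0.81 ± 0.21). Adjusted p values by limma-trend ran from 7.07e-06 for ERO1A to 0.0118 for PPFIA4. For these genes, already picked by their calls, the libraries of the 2 membranes did not overlap. The share of all genes without overlap was not counted. The PPFIA4 call ended without silk co-culture 2 (adjusted p = 0.0547) and in the fit of 15 libraries (adjusted p = 0.0832). ANGPTL4 was higher in every silk co-culture than in every LN/PC co-culture without being called (0.61 ± 0.39, adjusted p = 0.237), and was called in a fit of the 6 co-cultures alone (adjusted p = 0.00355). The 4 genes lower on silk were the hydroxylases of collagen: P4HA2 (-1.35 ± 0.19, adjusted p = 6.86e-05), PLOD2 (-1.33 ± 0.29, adjusted p = 0.00246), PLOD1 (-0.88 ± 0.16, adjusted p = 0.000612) and P4HA1 (-0.84 ± 0.20, adjusted p = 0.00462). The fibroblast share of RNA moved with this comparison, at 0.0457 ± 0.0597% of silk co-cultures against 12.97 ± 2.80% of LN/PC co-cultures (SD, n = 3 each), and its part in these 14 differences was not tested. Of the 4 hydroxylases, P4HA1, P4HA2 and PLOD1 were higher and PLOD2 lower in fibroblasts than in epithelial monocultures.

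**Figure D4:**
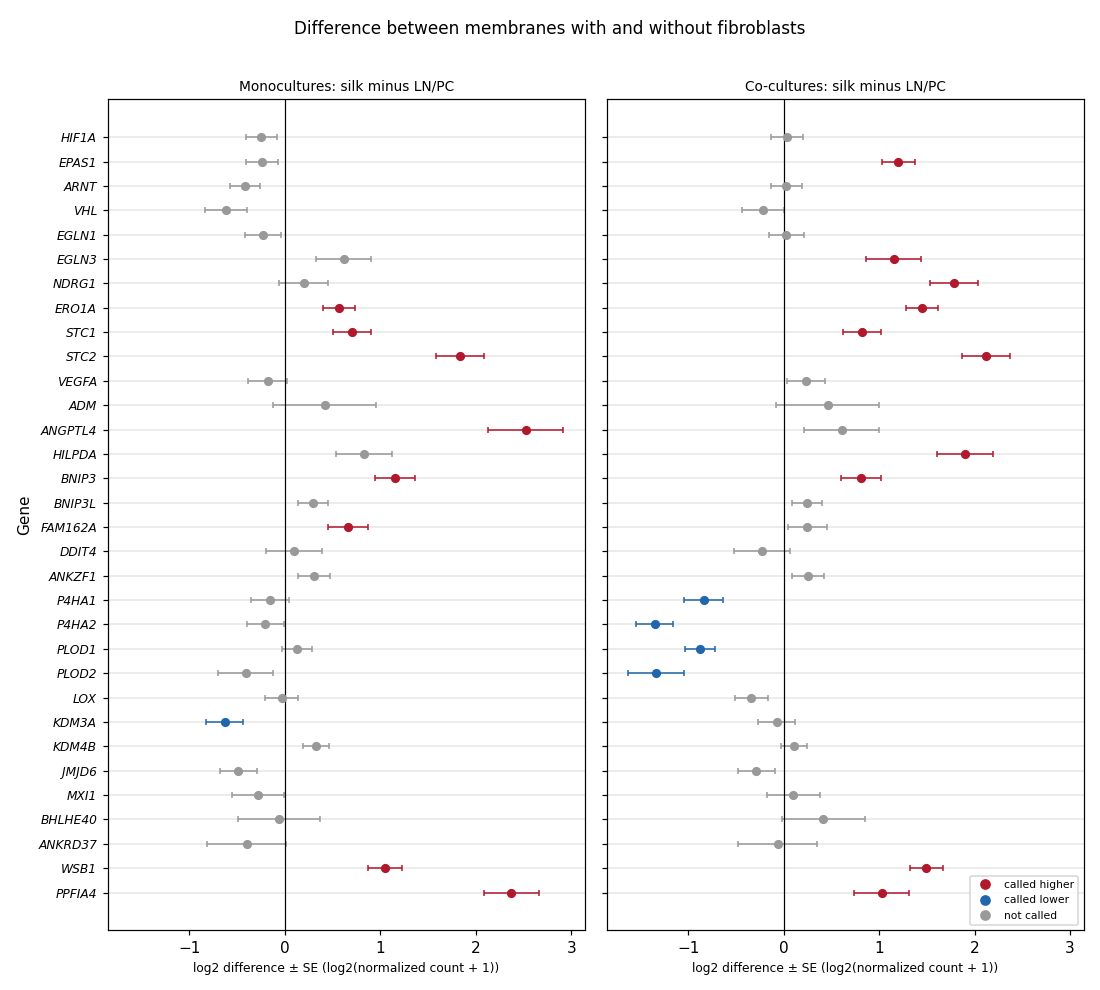
Points are log2 differences, silk minus LN/PC, for the 32 genes in monocultures (left) and co-cultures (right); bars are SE. The 8 red genes of the monoculture panel contrast with the 4 blue hydroxylases P4HA1, P4HA2, PLOD1 and PLOD2, which are blue in the co-culture panel only.

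Whether the co-culture difference itself depended on the membrane was tested as an interaction, the silk difference minus the LN/PC difference. It was called positive for 3 genes and negative for 3, beside 3.15% of all genes positive and 4.59% negative. The median of the 32 was 0.23, against 0.03 for all genes. The difference was larger on silk for NDRG1 (1.59 ± 0.36, adjusted p = 0.0108), EPAS1 (1.44 ± 0.24, adjusted p = 0.000935) and ERO1A (0.88 ± 0.23, adjusted p = 0.028). It was larger on LN/PC for ANGPTL4 (-1.91 ± 0.56, adjusted p = 0.045), P4HA2 (-1.15 ± 0.27, adjusted p = 0.0149) and PLOD1 (-1.005 ± 0.23, adjusted p = 0.0102). The NDRG1, EPAS1 and PLOD1 calls held under every alternative. The ERO1A call ended without silk co-culture 1 or 3, silk monoculture 1 or 2, LN/PC co-culture 2 or 3 or LN/PC monoculture 3 (adjusted p between 0.054 and 0.0969) and under epithelium-restricted scaling (adjusted p = 0.189). The ANGPTL4 call ended without any silk co-culture, silk monoculture 2 or 3, any LN/PC co-culture or LN/PC monoculture 1 or 2 (adjusted p between 0.062 and 0.137), and on the deposited log2 values (adjusted p = 0.135). The P4HA2 call ended without LN/PC co-culture 1 (adjusted p = 0.0654), and the count of negative genes was then 1, beside 1.715% of all genes. PPFIA4 missed the threshold (-1.34 ± 0.41, adjusted p = 0.0558) and passed it without LN/PC co-culture 3 or LN/PC monoculture 2 (adjusted p between 0.00804 and 0.0365). It also passed on the deposited log2 values (adjusted p = 0.0463), with a pseudocount of 5 (adjusted p = 0.0481), under upper quartile scaling (adjusted p = 0.047), under epithelium-restricted scaling (adjusted p = 0.0206) and with array weights (adjusted p = 0.0093). PLOD2 passed without LN/PC monoculture 3 (adjusted p = 0.0355) and VHL without LN/PC monoculture 2 (adjusted p = 0.0452).

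Most of these genes had different levels in the fibroblast and the epithelial monocultures. These groups also differed in growth surface, harvest and seeding density, and the medium of the fibroblasts is not stated. Effects of cell type cannot be told apart from effects of these. Fibroblast monocultures were compared with the mean of the 2 epithelial monoculture groups in a fit of 9 libraries: 9 genes were higher in fibroblasts and 18 lower, beside 28% of all genes higher and 30.3% lower. The median difference of the 32 was -0.52, against -0.02 for all genes. Levels are given as normalized counts of the 3 fibroblast libraries and as the range of the 6 epithelial monocultures.

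Higher in fibroblasts were ADM (4.70 ± 0.50, adjusted p = 8.33e-06), STC2 (3.46 ± 0.24, adjusted p = 1.98e-07), LOX (3.23 ± 0.14, adjusted p = 2.63e-09), EPAS1 (1.98 ± 0.15), P4HA2 (1.80 ± 0.17), PLOD1 (1.51 ± 0.15), ARNT (0.93 ± 0.13), P4HA1 (0.62 ± 0.19) and BNIP3L (0.42 ± 0.14, adjusted p = 0.0234). ADM had 4998, 5125 and 4935 in fibroblasts, against 81.8 to 670.1 in epithelial monocultures. STC2 had 1087, 1187 and 937 in fibroblasts, against 29.3 to 188 in epithelial monocultures. LOX had 11249.6, 11261 and 12121 in fibroblasts, against 1028 to 1471 in epithelial monocultures. Fibroblasts lay above all 6 monocultures for these 3 genes. EPAS1 had 1537, 1927 and 1912 in fibroblasts, against 367 to 626 in epithelial monocultures. P4HA2 had 2180.2, 2422 and 2286 in fibroblasts, against 578 to 1025 in epithelial monocultures. PLOD1 had 2909.8, 3185 and 3342 in fibroblasts, against 876 to 1341 in epithelial monocultures. The EPAS1 level of fibroblasts also exceeded that of every co-culture. ARNT had 847, 999.9 and 965 in fibroblasts, against 374 to 597 in epithelial monocultures. P4HA1 had 4038, 3964 and 3517 in fibroblasts, against 1827 to 3295 in epithelial monocultures. BNIP3L had 2164, 1954 and 1966 in fibroblasts, against 1143 to 1948 in epithelial monocultures. All 3 were above the monocultures in every fibroblast library. Total scaling ended the calls of P4HA1 (adjusted p = 0.28) and BNIP3L (adjusted p = 0.797). The BNIP3L call also ended without any 1 of the 3 fibroblast libraries (adjusted p between 0.0581 and 0.101) and under upper quartile scaling (adjusted p = 0.0755). 

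The genes that lay furthest below the epithelial level in fibroblasts were EGLN3 (-5.46 ± 0.31, adjusted p = 3.12e-08), STC1 (-4.20 ± 0.22, adjusted p = 1.47e-08), PPFIA4 (-3.79 ± 0.47, adjusted p = 3e-05), VEGFA (-3.02 ± 0.15, adjusted p = 7.1e-09) and BHLHE40 (-2.72 ± 0.42, adjusted p = 0.00017). EGLN3 had 4.32, 4.87 and 2.55 in fibroblasts, against 136 to 357 in epithelial monocultures. STC1 had 55.6, 43.0 and 33.4 in fibroblasts, against 497 to 1169 in epithelial monocultures. PPFIA4 had 10.3, 19.0 and 63.6 in fibroblasts, against 85.5 to 875 in epithelial monocultures. EGLN3 was thus nearly absent from fibroblasts. The size of its difference depended on the setting, from -5.78 to -2.28 over the alternatives, and that of STC1 ran from -4.56 to -2.94. Both calls held throughout. VEGFA had 759, 829 and 919 in fibroblasts, against 5145 to 7916 in epithelial monocultures. BHLHE40 had 258, 255 and 257 in fibroblasts, against 951 to 4722 in epithelial monocultures. The PPFIA4 difference was -4.49 without fibroblast monoculture 3, its highest fibroblast library. The other 13 lower genes differed by -2.08 (FAM162A) to -0.40 (KDM4B). BNIP3 had 684, 548 and 546 in fibroblasts, against 1034 to 3727 in epithelial monocultures. FAM162A had 282, 268 and 259 in fibroblasts, against 625 to 1665 in epithelial monocultures. PLOD2 had 1244, 1421 and 1638 in fibroblasts, against 3120.4 to 8717 in epithelial monocultures. Each was lower in every fibroblast library than in every monoculture. WSB1 had 1114, 1091 and 1475 in fibroblasts, against 1971 to 5502 in epithelial monocultures. KDM3A had 392, 312 and 342 in fibroblasts, against 483 to 1157 in epithelial monocultures. MXI1 had 272, 385 and 369.6 in fibroblasts, against 365 to 1069 in epithelial monocultures. The MXI1 groups overlapped and the others did not. NDRG1 had 2540.0, 2342 and 2481 in fibroblasts, against 2277 to 4385 in epithelial monocultures. ERO1A had 569, 676 and 662 in fibroblasts, against 653 to 1278 in epithelial monocultures. Of the narrow calls, NDRG1 (adjusted p = 0.0228) lost its call without silk monoculture 2 or fibroblast monoculture 2 or 3 (adjusted p between 0.0504 and 0.0693), ERO1A (adjusted p = 0.0127) without fibroblast monoculture 1 (adjusted p = 0.0736) and KDM4B (adjusted p = 0.0181) without fibroblast monoculture 1 or 2 (adjusted p between 0.0729 and 0.128).

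ANGPTL4, HILPDA, JMJD6, HIF1A and VHL were not called. ANGPTL4 had 190.3, 136 and 154 in fibroblasts, against 21.9 to 348 in epithelial monocultures. HILPDA had 93.0, 114 and 89.5 in fibroblasts, against 49.4 to 177 in epithelial monocultures. HIF1A had 6582, 7197 and 7517 in fibroblasts, against 6482 to 9349 in epithelial monocultures. The ANGPTL4, HILPDA and HIF1A groups overlapped. VHL had 728, 876 and 730.1 in fibroblasts, against 830.3 to 1719.5 in epithelial monocultures. ANGPTL4 (0.91 ± 0.42) was called without silk monoculture 3 or LN/PC monoculture 3 (adjusted p between 0.0219 and 0.0408), in the fit of 15 libraries (adjusted p = 0.0248) and with array weights (adjusted p = 0.0238). VHL (-0.45 ± 0.20) was called without LN/PC monoculture 2 (adjusted p = 0.00048), in the fit of 15 libraries (adjusted p = 0.0404), with array weights (adjusted p = 0.00829) and under upper quartile (adjusted p = 0.0253) and total scaling (adjusted p = 0.00123). HIF1A was called lower under total scaling (adjusted p = 0.00922).

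Since LN/PC co-cultures hold fibroblast RNA, they were also set against 3 in-silico mixtures, each of 1 LN/PC monoculture library and the fibroblast library of the same number at the measured mean share of 12.97%. Of the 32 genes, 14 were called higher in LN/PC co-cultures than in the mixtures and 1 lower, beside 1.95% of all genes higher and 2.36% lower. Of the 14, 13 were also among the 15 called against the monocultures. For 11 of the 14, the co-culture mean lay above the means of both sources. ANGPTL4 averaged 643 ± 79.3 (SD, n = 3) normalized counts in LN/PC co-cultures, against 54.5 ± 19.9 in the mixtures (3.59 ± 0.34, adjusted p = 2.78e-05). P4HA2 averaged 2886 ± 509.6 in LN/PC co-cultures, against 937 ± 218 in the mixtures (1.63 ± 0.16, adjusted p = 4.65e-05). ERO1A averaged 1861 ± 204 in LN/PC co-cultures, against 723 ± 119 in the mixtures (1.37 ± 0.16, adjusted p = 0.000125). The differences of the fibroblast-rich genes shrank: STC2 was 0.91 ± 0.16, adjusted p = 0.00301, LOX was 1.03 ± 0.16, adjusted p = 0.00172 and PLOD1 was 0.92 ± 0.15, adjusted p = 0.00204 against the mixtures. A fibroblast share of 29.5% for STC2, 39.4% for LOX and 69.1% for PLOD1 would bring a mixture to the measured mean. ADM reversed: it averaged 725 ± 94.3 in LN/PC co-cultures, against 803 ± 57.9 in the mixtures (-0.15 ± 0.51, adjusted p = 0.899), and a share of 11.4% gives its level. NDRG1 narrowly lost its call (0.86 ± 0.24, adjusted p = 0.0507), and STC1 gained one (0.76 ± 0.20, adjusted p = 0.0382). EPAS1 was the gene called lower than the mixtures (-0.62 ± 0.15, adjusted p = 0.0233), with 431 ± 14.3 in LN/PC co-cultures and 666 ± 68.3 in the mixtures. The mixtures share their monoculture libraries with the direct comparison and assume that each cell type keeps its level in co-culture. They also rest on a median share from which single markers departed both ways. Most of the 18 fibroblast markers lay above that share, and PDGFRA, PDGFRB, FBN1 and FBLN1 lay below it. COL6A3 averaged 28393 in LN/PC co-cultures and 90161 in fibroblasts, FAP averaged 730 and 1600, and PDGFRB averaged 506 and 8069. The shares given above for STC2 and LOX lie within the spread of these markers. Calls against mixtures at other shares were not tested.

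**Figure D5:**
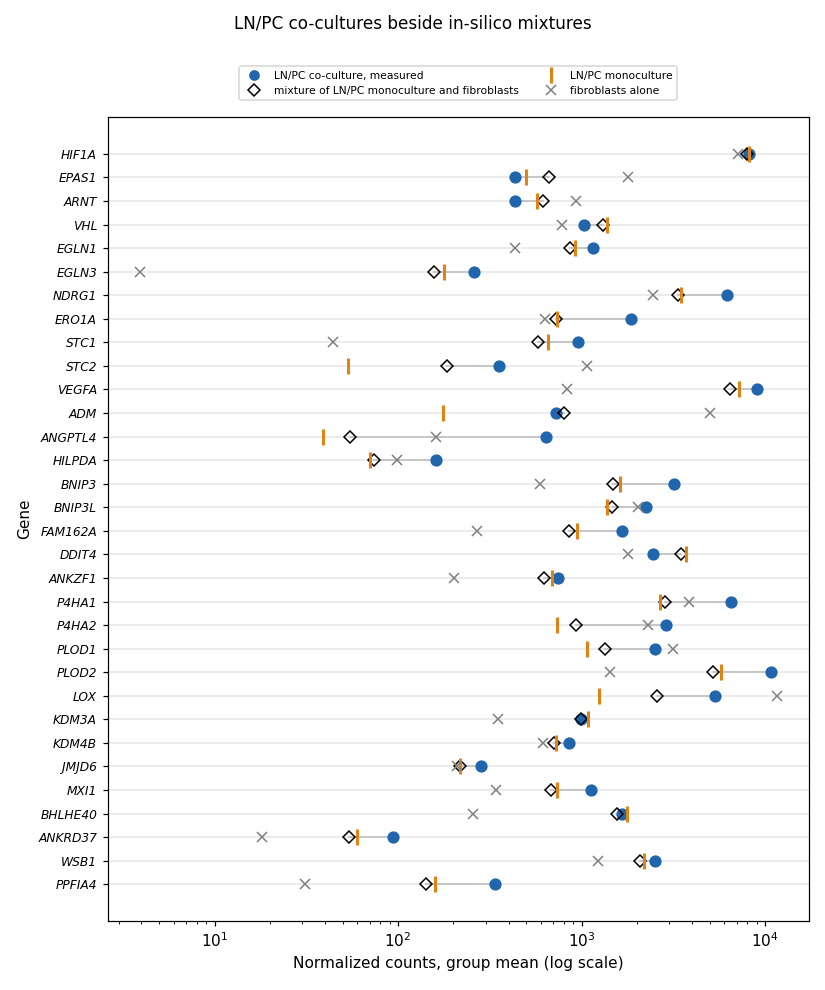
Group means of normalized counts, on a log axis, for the 32 genes: measured LN/PC co-cultures (filled circles), in-silico mixtures (open diamonds), LN/PC monocultures (bars) and fibroblasts alone (crosses). Circles for ANGPTL4, ERO1A, P4HA1 and P4HA2 lie to the right of all 3 other symbols, while the ADM circle lies beside its diamond.

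Genes of the HIF pathway outside the 32 were counted by list. Of 21 other pathway components, 2 were called higher in silk co-cultures than in silk monocultures and 0 lower: CITED2 (1.16 ± 0.15, adjusted p = 0.000224) and CITED4 (0.76 ± 0.17, adjusted p = 0.0174), which compete with HIF for its coactivators. In LN/PC co-cultures 1 was higher than in LN/PC monocultures and 0 lower, CITED2 (0.63 ± 0.15, adjusted p = 0.00854). In silk co-cultures against LN/PC co-cultures 5 were higher and 5 lower, near the 18.5% and 17.6% of all genes; the lower ones included CUL2 (-1.13 ± 0.27, adjusted p = 0.00503) and ELOC (-0.95 ± 0.21, adjusted p = 0.0023), parts of the ligase that VHL recruits. In silk monocultures against LN/PC monocultures 0 were higher and 1 lower, OS9 (-1.04 ± 0.23, adjusted p = 0.00993). No interaction was called, beside 3.15% of all genes positive and 4.59% negative. Shares of all genes higher and lower were 2.91% and 0.866% for silk co-cultures, and 7.8% and 4.72% for LN/PC co-cultures, each against its monocultures. They were 5.88% and 5.79% between the monocultures of the membranes. In fibroblasts against epithelial monocultures 3 were higher and 5 lower, smaller shares than the 28% and 30.3% of all genes, with CITED4 (-6.49 ± 0.52, adjusted p = 6.72e-07) and ARNT2 (-3.47 ± 0.18, adjusted p = 1.56e-08), an ARNT relative, lowest.

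Of 21 glycolysis and pyruvate genes, 4 were higher in silk co-cultures than in silk monocultures and 0 lower: the glucose transporters SLC2A3 (3.25 ± 0.24, adjusted p = 1.04e-06) and SLC2A1 (2.20 ± 0.19, adjusted p = 3.17e-06), HK2 (2.42 ± 0.19, adjusted p = 1.69e-06), which traps glucose in the cell, and the enolase ENO2 (1.95 ± 0.15, adjusted p = 1.04e-06). In LN/PC co-cultures 5 were higher than in LN/PC monocultures and 0 lower, led by the aldolase ALDOC (5.64 ± 0.43, adjusted p = 1.02e-07), SLC2A3 (2.70 ± 0.24, adjusted p = 6.5e-07), ENO2 (1.23 ± 0.15, adjusted p = 1.46e-05) and PGK1 (0.90 ± 0.24, adjusted p = 0.0187). The list's median difference was 0.49 on silk and 0.34 on LN/PC, against 0.00 and -0.04 for all genes. Shares of all genes higher and lower were 2.91% and 0.866% on silk, and 7.8% and 4.72% on LN/PC. Between membranes they were 5.88% and 5.79% in monocultures, and 18.5% and 17.6% in co-cultures. For the interaction they were 3.15% and 4.59%, and for fibroblasts 28% and 30.3%. SLC2A1 had 20519, 15466 and 17845 normalized counts in silk co-cultures, against 3705, 4062 and 3869 in silk monocultures. It had 2728, 4022 and 2616 in LN/PC co-cultures, against 4069, 4220.3 and 5579 in LN/PC monocultures. Between membranes, the calls of the list were all on the side of silk: 6 genes higher and 0 lower in monocultures, and 8 higher and 0 lower in co-cultures, there led by HK2 (2.82 ± 0.19, adjusted p = 4.89e-08), SLC2A1 (2.54 ± 0.19, adjusted p = 1e-07), ENO2 (2.29 ± 0.15, adjusted p = 2.33e-08) and PFKFB3 (1.44 ± 0.22, adjusted p = 0.000162). The interaction was positive for 4 genes and negative for 1, among them SLC2A1 (2.78 ± 0.27, adjusted p = 7.5e-06), HK2 (2.55 ± 0.28, adjusted p = 1.87e-05) and ALDOC (-4.29 ± 0.61, adjusted p = 0.000247). In fibroblasts 2 were higher and 18 lower than in epithelial monocultures. The 2 were ALDOC (3.44 ± 0.35, adjusted p = 5.09e-06) and SLC2A3 (2.98 ± 0.21, adjusted p = 1.82e-07), which also led the list in LN/PC co-cultures, where fibroblast RNA was present; its part in these 2 differences was not tested. ALDOC was near the detection limit in LN/PC monocultures, with 130.0, 93.6 and 167 in LN/PC co-cultures, against 0.915, 3.09 and 1.13 in LN/PC monocultures, so its fitted difference there depends on the pseudocount.

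Of 5 pH and ion genes, CA12 (1.32 ± 0.26, adjusted p = 0.00768), a carbonic anhydrase, was the 1 called higher in silk co-cultures than in silk monocultures. In LN/PC co-cultures CA12 (3.58 ± 0.26, adjusted p = 5.76e-08) and CA9 (3.38 ± 0.91, adjusted p = 0.022), the carbonic anhydrase best known as a HIF target, were higher than in LN/PC monocultures, with 0 lower on either membrane. CA9 had 82.0, 181 and 58.4 in LN/PC co-cultures, against 0.0, 55.0 and 13.4 in LN/PC monocultures, so its fitted difference there rests in part on the pseudocount at a library of 0. In silk co-cultures CA9 had 348, 261 and 310, against 110, 73.9 and 108 in silk monocultures. These silk groups did not overlap, though CA9 was not called between them. CA12 was also higher in fibroblasts than in epithelial monocultures (2.80 ± 0.24, adjusted p = 1.1e-06), and CA9 was at 0 in all 3 fibroblast libraries. In monocultures 2 were higher on silk than on LN/PC and 0 lower, CA12 (2.07 ± 0.26, adjusted p = 0.000147) among them. In co-cultures 2 genes were higher and 1 lower on silk than on LN/PC, with SLC4A4 (1.13 ± 0.20, adjusted p = 0.000541) among the higher and SLC16A1 (-0.87 ± 0.22, adjusted p = 0.00685) the lower. Of 34 other hypoxia-induced genes tested, 10 were higher and 0 lower in silk co-cultures than in silk monocultures, among them the growth factor binding protein IGFBP3 (2.39 ± 0.17, adjusted p = 1.04e-06), the stress factor DDIT3 (1.61 ± 0.29, adjusted p = 0.00442) and the adenosine receptor ADORA2B (1.42 ± 0.35, adjusted p = 0.0286). In LN/PC co-cultures 9 were higher and 3 lower than in LN/PC monocultures, among them TMEM45A (5.55 ± 0.58, adjusted p = 3.37e-06), CAV1 (3.71 ± 0.37, adjusted p = 1.98e-06) and IGFBP3 (3.58 ± 0.17, adjusted p = 4.27e-10), all 3 of which were also higher in fibroblasts than in epithelial monocultures. The median difference of these 34 was 0.68 on silk and 0.34 on LN/PC. Between membranes 5 were higher and 1 lower in silk monocultures, and 11 higher and 7 lower in silk co-cultures. For both lists the shares of all genes higher and lower were 2.91% and 0.866% on silk, and 7.8% and 4.72% on LN/PC. Between membranes they were 5.88% and 5.79% in monocultures, and 18.5% and 17.6% in co-cultures.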

How the data were processed

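RNA-seq of 15 libraries (5 groups of 3) was analysed from 1 table of 15790 genes. Per the submitters' processing notes, the authors used Salmon 1.10.3 and DESeq2; no aligner setting, build or annotation was found in the labels or the header. Deposited values are log2 on a variance-stabilized scale with a floor of 5.53664461. They were inverted to normalized counts: the median ratio to the geometric mean library was then 1.01175 in every library over 13121 genes, while 2 raised to the deposited values gave 0.994 to 1.002. Low values could not be read as whole reads (27.0% to 45.7% came within 0.1), so no count model was run. The main test was limma-trend (limma 3.58.1 in R 4.3.3) on log2(normalized count + 1), with Benjamini-Hochberg adjustment over 14433 genes in 12 epithelial libraries, or 14502 genes in the 9 monoculture libraries. Genes needed a normalized count of at least 10 in at least 3 libraries. Values in every library are printed for genes called among the epithelial groups and for HIF1A, EPAS1, ARNT and VHL. From other lists, up to 4 called genes per comparison with a mean of at least 100 are named. Some genes of these lists are not reported here. The 32 genes and all lists were chosen with earlier results of these data known. Fibroblast share was the median over 112 genes at least 100 times higher in fibroblasts. Mixtures were weighted sums at that share. Gene symbols that occur more than once in the table (61) include none of the 32. Alternatives covered pseudocount, filter, scaling, libraries in the fit, replicate block, array weights, mixtures and each library left out.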

Additional observations from a re-analysis of the deposited data

Results flagged for a closer look

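The co-culture difference of 6 genes differed between the membranes by the interaction test in limma-trend. NDRG1 was larger on silk, with an interaction of 1.59 log2 units (adjusted p = 0.0108): all 3 silk co-cultures lay above all other libraries, while on LN/PC the groups overlapped. EPAS1 was larger on silk by 1.44 (adjusted p = 0.000935), with a difference of 1.25 on silk and -0.18 on LN/PC. ERO1A was larger on silk by 0.88 (adjusted p = 0.028), with 2.23 on silk and 1.35 on LN/PC. ANGPTL4 was larger on LN/PC, with an interaction of -1.91 (adjusted p = 0.045). Its silk minus LN/PC difference was 0.61 in co-cultures, not called though the groups did not overlap, and 2.52 in monocultures. P4HA2 (-1.15, adjusted p = 0.0149) and PLOD1 (-1.005, adjusted p = 0.0102) were larger on LN/PC. The mean fibroblast share of RNA was 0.0457% for silk co-cultures, against 12.97% for LN/PC co-cultures. Its part in these 6 interactions was not tested. In LN/PC co-cultures against in-silico mixtures at 12.97%, P4HA2 (1.63) and PLOD1 (0.92) were higher and EPAS1 (-0.62) was lower. The mixtures assume that each cell type keeps its level in co-culture, and the interaction was not fitted against them. Membrane and harvest method cannot be told apart in these values.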

How the results depend on the processing

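Of 83 calls of the 32 genes over 6 comparisons, 59 held under every alternative. Over 1878 alternative fits of these results, 1742 kept direction and call, 135 lost the call and 1 reversed: ADM in LN/PC co-cultures, which was -0.15 against mixtures. In silk monocultures against LN/PC monocultures, 5 genes were higher when these libraries were fitted alone, beside 2.85% of all genes. The number lower there was 0 with no filter, upper quartile scaling, total scaling, epithelium-restricted scaling, these libraries alone or a replicate block, and 2 with array weights. The share of all genes lower was 2.64% to 5.10% in the settings named with 0 and 9.22% with array weights. In silk co-cultures against silk monocultures, 19 genes were higher with epithelium-restricted scaling, beside 6.19% of all genes. With array weights 21 were higher, beside 10.3% of all genes, and 1 lower, beside 8.35%. In LN/PC co-cultures against LN/PC monocultures, 24 were higher with epithelium-restricted scaling, beside 25.2% of all genes. There 1 was lower with total scaling, beside 9.86% of all genes, and 1 against mixtures, beside 2.36%. The interaction was positive for 5 genes on the deposited log2 values, beside 3.54% of all genes, and negative for 5 with array weights, beside 6.71%. Leaving out 1 library gave 5 to 9 genes higher and 0 to 1 lower in silk monocultures, 7 to 16 higher in silk co-cultures, 9 to 16 higher and 0 to 1 lower in LN/PC co-cultures, and 1 to 4 with a negative interaction. The shares of all genes in those fits, in the same order, were 2.67% to 10.8%, 2.16% to 11.5% and 1.24% to 4.12%. They were 3.53% to 8.51%, 1.785% to 5.93% and 1.715% to 5.395% for the rest.

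Pairing by replicate number was looked at through correlations of deviations from the group means. Those of same-numbered libraries ran from -0.234 to 0.182, and 3 of 30 exceeded 0.1. Those of differently numbered libraries ran from -0.244 to 0.318, and 8 of 60 exceeded 0.1. Deviations within a group of 3 are not independent, so these values cannot decide whether libraries were paired. The replicate block ended 4 calls, KDM3A (adjusted p = 0.0559) and FAM162A (adjusted p = 0.0701) in silk against LN/PC monocultures, PLOD2 (adjusted p = 0.0663) in LN/PC co-cultures and MXI1 (adjusted p = 0.0553) in silk co-cultures. It made 2, the PPFIA4 interaction (adjusted p = 0.0486) and ANGPTL4 in fibroblasts (adjusted p = 0.0466). The share of all genes called higher ran, over the alternatives, from 2.67% to 10.8% for silk against LN/PC monocultures, 12.5% to 23.0% for co-cultures, 1.24% to 10.3% for silk co-cultures against silk monocultures, 1.95% to 25.2% for LN/PC co-cultures against LN/PC monocultures, 1.28% to 6.06% for the interaction and 18.1% to 32.2% for fibroblasts. The share lower ran from 2.16% to 11.5%, 10.4% to 21.7%, 0.201% to 8.35%, 0.866% to 9.86%, 1.72% to 6.71% and 27.9% to 44.7% in the same order. Epithelium-restricted scaling moved the median of all genes by 0.19 in silk co-cultures against silk monocultures and by 0.42 in LN/PC co-cultures against LN/PC monocultures, and total scaling moved it by -0.13 and -0.16; no called gene of the 32 changed sign under either. The median of the 32 in the interaction was -0.01 with epithelium-restricted scaling. The cause of these changes was not tested.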

Other observations

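CD68, a lysosomal protein of macrophages that other cells also make, was the 1 gene of a leukocyte marker list found in the table. It ran from 522.7 to 580.6 normalized counts in fibroblasts, from 756.9 to 884.7 in silk co-cultures against 85.8 to 195.8 in silk monocultures, and from 351 to 500.9 in LN/PC co-cultures against 151.8 to 255 in LN/PC monocultures. It was called higher in the co-cultures of both membranes, as were some of the 32 HIF genes, and its part in those results was not tested.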
